A study of Mus musculus with 12 samples.

Results

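The granins and the enzymes that cut and trim prohormones were followed in adrenal medullae dissected from male mice of the C57Bl6 strain. The genes were chosen by symbol: Chga, Chgb, Scg2, Scg3, Scg5, Pcsk1, Pcsk2, Pcsk1n, Cpe and Pam. Of these 10 genes, 9 were paired with a probe set of the array, out of 19505 genes measured, and Pcsk2 was not analysed here. Each of the 9 had a single probe set. RNA of 12 animals was hybridized to Affymetrix arrays, 1 array per animal, in 4 groups of 3. Normally colonized mice and germ-free mice, which had no gut microbes, shared the same genetic background. After 3 h without food each mouse received either saline or regular human insulin (2 IU/kg) into the peritoneum, and the medullae were taken 90 min later. The question was how the absence of gut microbes bears on the response of this tissue to a fall in blood glucose caused by insulin. Values are log2 intensities after RMA normalization, so a difference of 1 is a doubling, and they were not used to set one gene's level against another's.

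Granins are acidic proteins that aggregate in the trans-Golgi network and help to form dense-core secretory granules. Chromaffin cells store catecholamines in these granules together with peptides, and release both when the splanchnic nerve fires, as it does in hypoglycemia. Peptide precursors are cut inside the granule by prohormone convertases, trimmed by carboxypeptidase E (Cpe) and amidated by peptidylglycine monooxygenase (Pam).

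The stretch of DNA ahead of the transcript start was examined, since several granin promoters are textbook targets of the cyclic AMP pathway. RefSeq promoter sequences of mouse assembly GRCm38.p6 were matched for 8 of the 9 members (Chga, Chgb, Scg2, Scg3, Scg5, Pcsk1, Pcsk1n and Pam), and the 250 bases before the start were read. The 3 members with the full palindrome of the motif are shown, a choice made on the motif and not on how the genes moved. Of these, Scg2 and Pcsk1 were not called in any comparison with the settings used throughout. Chga is shown as well, although it holds only the short form of the motif, as do Scg3 and Scg5. Scg3, Scg5 and Pcsk1n, which were called, are described by their matches alone. In the sequences below, 5′ to 3′ on the strand of the gene, capitals mark each match on either strand to the motif TGACG, the core of the cyclic AMP response element. The windows are chr12:102554691-102554940 (plus strand) for Chga, chr2:132781392-132781641 (plus strand) for Chgb and chr1:79440027-79440276 (minus strand) for Scg2, and for Pcsk1 the 30 bases around its longest match, chr13:75089768-75089797 (plus strand).
Chga: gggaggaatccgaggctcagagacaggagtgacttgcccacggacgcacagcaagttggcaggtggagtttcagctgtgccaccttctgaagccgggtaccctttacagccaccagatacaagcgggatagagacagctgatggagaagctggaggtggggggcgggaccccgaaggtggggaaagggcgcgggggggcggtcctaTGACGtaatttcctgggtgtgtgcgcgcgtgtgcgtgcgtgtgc
Chgb: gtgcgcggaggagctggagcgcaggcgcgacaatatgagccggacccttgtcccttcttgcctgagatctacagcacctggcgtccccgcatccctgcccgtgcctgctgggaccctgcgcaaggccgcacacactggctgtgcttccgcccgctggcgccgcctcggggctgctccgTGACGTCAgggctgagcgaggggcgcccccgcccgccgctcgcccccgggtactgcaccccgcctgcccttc
Scg2: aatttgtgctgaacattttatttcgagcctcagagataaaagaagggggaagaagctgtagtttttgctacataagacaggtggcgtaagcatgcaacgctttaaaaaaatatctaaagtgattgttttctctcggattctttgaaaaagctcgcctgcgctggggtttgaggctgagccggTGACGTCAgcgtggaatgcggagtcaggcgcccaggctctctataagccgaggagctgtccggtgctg
Pcsk1: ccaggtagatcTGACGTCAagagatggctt
The full palindrome TGACGTCA, which contains TGACG on both strands, was present in 3 of the 8 members, 72 bases ahead of the start in Chgb, 68 in Scg2 and 78 in Pcsk1. Among 32851 mouse promoters of the same length, 1.55% held it, and counted by gene 1.77% of 27025 genes did. The shorter TGACG was present in 6 of the 8 (Chga, Chgb, Scg2, Scg3, Scg5 and Pcsk1), against 17.8% of all promoters and 19.8% of all genes. It lay 44 bases ahead of the start in Chga and 30 in Scg3. Every motif was searched on both strands. TATAA, the core of the TATA box, was found in Scg2 and Pcsk1n (22.8% of all promoters, 25.8% of all genes). It lay 27 bases ahead of the start in Scg2, and 170 ahead on the opposite strand in Pcsk1n. TGANTCA, the site of AP-1 factors, was found in Pcsk1n alone among the members (6.75% of all promoters, 7.82% of all genes). Pam held none of these motifs in its 250 bases. These matches describe the letters of the windows and no binding was measured.

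Several features of the whole set of arrays bear on these genes. The median of the 5222 negative control probe sets was 4.70 to 4.83 in the colonized arrays and 5.30 to 5.54 in the germ-free arrays, so array processing and colonization state cannot be told apart. Arrays of a group correlated at a median r of 0.961 to 0.993, with colonized saline animal 2 the lowest. Markers of chromaffin cells were well above the negative controls, but so were those of the adrenal cortex, whose mean of 10 genes was 12.24 to 12.74 over the 12 arrays, so cortex transcripts were present in each piece. The mean of 14 chromaffin markers (Th, Dbh and Pnmt among them) for colonized mice was 9.92 ± 0.16 (SD, n = 3) after saline and 9.96 ± 0.31 after insulin, and for germ-free mice 9.59 ± 0.06 after saline and 8.99 ± 0.27 after insulin. Fewer chromaffin cells in a piece and less RNA per cell cannot be told apart in such bulk samples. Adipocyte markers spanned 6.66 to 10.60 within colonized saline, were 6.31 to 8.83 after insulin in colonized mice, and in germ-free mice ran from 9.19 to 9.89 with saline and from 10.42 to 10.86 with insulin. Pituitary markers, among them Gh and Prl, averaged 6.50 to 7.18 in germ-free insulin and 5.27 to 5.70 in the other 9 arrays. Intestinal epithelium markers averaged 7.52 to 9.52 in germ-free saline and 4.69 to 5.08 elsewhere. Liver markers ran from 5.76 to 10.67 within colonized saline.

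**Figure D1:**
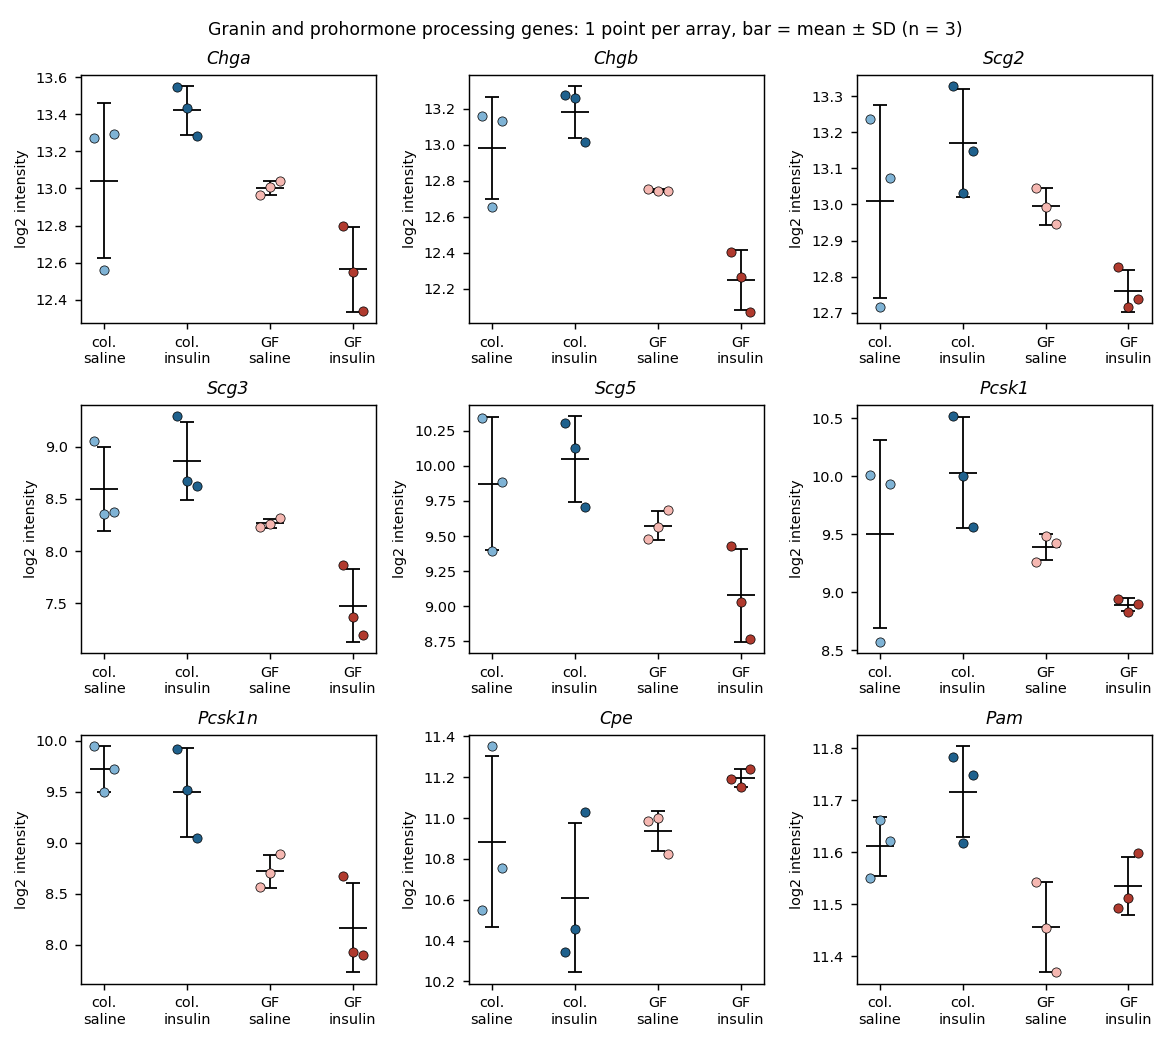
Log2 intensity of each of the 9 genes (1 panel per gene, each with its own axis) in the 4 groups (col., colonized; GF, germ-free), with 1 point per array and bars for the mean ± SD (n = 3). For Chgb and Scg3 the 3 germ-free insulin arrays are the lowest of all 12, while Cpe has its highest group mean there (11.20).

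The granins that build the granule core were described first. Chga encodes chromogranin A, the most used marker of neuroendocrine granules. Its values were 13.27, 12.56 and 13.29 after saline and 13.55, 13.43 and 13.28 after insulin in colonized mice, and 12.96, 13.01 and 13.04 after saline and 12.80, 12.55 and 12.34 after insulin in germ-free mice. The group means ordered as colonized insulin, colonized saline, germ-free saline and germ-free insulin, and colonized saline overlapped with each of the other groups. Its value came within 0.33 of the highest probe set of an array, near the top of the scale, where differences can be compressed.

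Chgb encodes chromogranin B, a companion of chromogranin A in the granule matrix. It read 13.16, 12.65 and 13.13 in colonized mice with saline, 13.27, 13.26 and 13.02 with insulin, 12.76, 12.74 and 12.74 in germ-free mice with saline, and 12.41, 12.27 and 12.07 with insulin. All 3 germ-free insulin arrays lay below the other 9. The colonized saline range spanned the whole germ-free saline range because its animal 2 was low.

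Scg2 encodes secretogranin II, the precursor of secretoneurin. It was the granin with the narrowest spread, with 13.24, 12.72 and 13.07 after saline and 13.33, 13.03 and 13.15 after insulin in colonized mice, and 13.05, 12.99 and 12.94 after saline and 12.83, 12.72 and 12.74 after insulin in germ-free mice. Germ-free insulin lay below colonized insulin and germ-free saline without overlap, but not below colonized saline animal 2. Its values too were close to the top of the scale, within 0.43 of an array's highest probe set.

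Scg3 encodes secretogranin III, which binds chromogranin A to the granule membrane. Its values were 9.06, 8.36 and 8.38 in colonized mice with saline, 9.29, 8.67 and 8.63 with insulin, 8.23, 8.26 and 8.31 in germ-free mice with saline, and 7.87, 7.37 and 7.19 with insulin. The germ-free insulin arrays were the lowest 3 of 12, and animals 11 and 12 of that group were under 7.71, the 95th percentile of the negative controls. Colonized saline and colonized insulin overlapped, and germ-free saline lay just under both.

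Scg5 encodes a chaperone that helps the convertase encoded by Pcsk2 to mature. It measured 10.34, 9.39 and 9.89 after saline and 10.31, 10.13 and 9.71 after insulin in colonized mice, and 9.48, 9.56 and 9.68 after saline and 9.43, 9.03 and 8.77 after insulin in germ-free mice. Germ-free insulin was below germ-free saline by a narrow gap, and the 3 other groups were neighbours that overlapped or, for germ-free saline against colonized insulin, lay close together.

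Among the processing genes, Pcsk1 encodes the convertase that makes the first cuts in many precursors. Its values were 10.01, 8.57 and 9.93 in colonized mice with saline, 10.52, 10.01 and 9.57 with insulin, 9.26, 9.49 and 9.42 in germ-free mice with saline, and 8.94, 8.83 and 8.90 with insulin. Colonized saline animal 2 had the lowest Pcsk1 value of all 12 arrays, below each germ-free animal. The SD was 0.81 in colonized saline and 0.06 in germ-free insulin.

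Pcsk1n encodes proSAAS, a granin-like protein whose fragment inhibits the Pcsk1 convertase. It read 9.95, 9.50 and 9.72 after saline and 9.92, 9.51 and 9.05 after insulin in colonized mice, and 8.57, 8.71 and 8.89 after saline and 8.67, 7.93 and 7.90 after insulin in germ-free mice. All 6 germ-free arrays lay below all 6 colonized arrays, and within each colonization state the saline and insulin groups overlapped. Its profile over the arrays varied most of the 9 genes, with an SD of 0.68.

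Cpe and Pam, the trimming and amidating enzymes, did not follow the others. Cpe read 10.55, 11.35 and 10.75 in colonized mice with saline, 10.34, 10.46 and 11.03 with insulin, 10.98, 11.00 and 10.82 in germ-free mice with saline, and 11.19, 11.15 and 11.24 with insulin. Its group means ran in the reverse order of those of Chga, with germ-free insulin highest, and colonized saline animal 2 was its single highest array. Pam stayed within a narrow band, with 11.55, 11.66 and 11.62 after saline and 11.78, 11.62 and 11.75 after insulin in colonized mice, and 11.54, 11.45 and 11.37 after saline and 11.49, 11.51 and 11.60 after insulin in germ-free mice. For 7 of the 9 genes, all but Cpe and Pam, colonized saline animal 2 was the lowest of its group. That animal also had the highest adipocyte (10.60) and liver (10.67) marker means of the colonized arrays. Its means for markers of sympathetic ganglion neurons (9.83), fibroblasts (9.45) and Schwann and sustentacular cells (7.96) were the highest of all 12 arrays. Its cortex marker mean (12.24) was the lowest of the 12. The part of these marker levels in its low granin values was not tested.

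**Figure D2:**
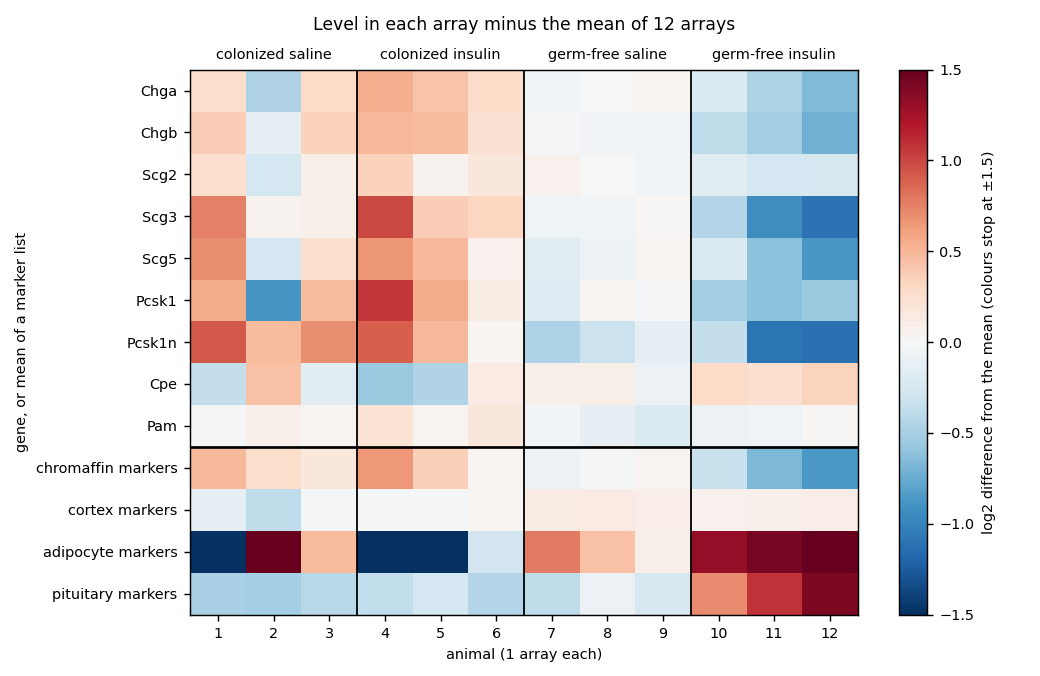
Log2 level of each gene (rows) in each of the 12 arrays (columns) minus its mean over the arrays, with the means of 4 marker lists under the thick line. Red is above and blue below the mean, and colours stop at ±1.5. Germ-free insulin animals are low for the granins and the chromaffin markers and high for adipocyte and pituitary markers.

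The first comparison asked which of these genes differed between insulin and saline in colonized mice. A gene was called at a limma p under 0.05 after Benjamini-Hochberg adjustment over 19572 probe sets. Of the 9 genes 0 were called by limma, against 0.153% of all probe sets, and 0 had an unadjusted p under 0.05, against 11.8% of all. The differences (insulin minus saline, ± SE, n = 3 per group) were above 0 for 7 genes, with a median of 0.17 against 0.0047 over all genes. Pcsk1 had the highest, 0.53 ± 0.32 (limma adjusted p = 0.531; 95% interval -0.18 to 1.23), and Chga followed with 0.38 ± 0.18 (adjusted p = 0.446; -0.021 to 0.78). Scg3 (0.27), Chgb (0.20), Scg5 (0.17), Scg2 (0.16) and Pam (0.10) had lower values, and Pcsk1n (-0.23) and Cpe (-0.27) were below 0. Without colonized saline animal 2 the median over the 9 genes was 0.037, a move of more than 1.5 times, and with 1 array left out Pcsk1 ran from 0.062 to 0.78. In these mice adipocyte markers had a median difference of -1.71 and liver markers of -1.62, with 0 limma calls in either list (4 of 9 and 2 of 10 at an unadjusted p under 0.05), and their part was not tested. The insulin and saline arrays overlapped for each of the 9 genes, while 7.53% of all probe sets lay wholly higher and 6.55% wholly lower with insulin.

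In germ-free mice the insulin values were below 0 for each granin, but 0 of the 9 genes were called by limma (0.439% of all probe sets), and 4 had an unadjusted p under 0.05 (8.31% of all). Scg3, whose germ-free insulin mean of 7.48 was under the negative control threshold of 7.71, where differences can be compressed, differed by -0.79 ± 0.23 (limma adjusted p = 0.254; 95% interval -1.29 to -0.29) and Chgb by -0.50 ± 0.14 (adjusted p = 0.253; -0.81 to -0.18). Chga differed by -0.44 ± 0.18 (adjusted p = 0.534) and Pcsk1n by -0.55 ± 0.24 (adjusted p = 0.553), and these 4 were the genes with an unadjusted p under 0.05. Scg5 and Pcsk1 had values of -0.50 each, Scg2 of -0.23, Pam of 0.079 and Cpe of 0.26. The 3 insulin arrays lay below the 3 saline arrays for 6 genes (Chga, Chgb, Scg2, Scg3, Scg5 and Pcsk1), where 10.1% of all probe sets did so. For Cpe they lay above, as for 9.55% of all. The median over the 9 genes was -0.50, against 0.0063 over all genes.

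With array weights, which give less weight to arrays far from their group, limma called 2 of the 9 genes for this comparison, Chgb (adjusted p = 0.0191) and Scg3 (0.0308), with 2.78% of all probe sets called. A fit to the 6 germ-free arrays alone called 1, Pcsk1 (adjusted p = 0.0468 by limma), with 1.63% of all called. Of the marker lists, intestinal epithelium moved most in the same arrays, with a median of -3.89. In the main fit limma called 9 of its 10 markers lower with insulin, where 0.439% of all probe sets were called. The largest of these calls were Reg1 (-5.43), Guca2b (-4.45), Akp3 (-4.06) and Pigr (-3.94). All 10 markers were lower without overlap. Of the 14 chromaffin markers limma called 3 lower with insulin, namely Gata2 (-1.26), Phox2a (-1.18) and Hand2 (-0.89), all transcription factors of the chromaffin lineage. Most of the list was lower too, with 13 of 14 below 0 and a median of -0.59. Without overlap 11 of these markers were lower, as were 10.1% of all probe sets. The pituitary genes Gh (4.48), Prl (3.08), Cga (2.08) and Pomc (1.66) rose there by limma. The part of these lists in the granin values was not tested.

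The difference between the 2 insulin effects, germ-free minus colonized, was tested directly. It was below 0 for 8 of the 9 genes, with a median of -0.67, and limma called 0 of them (0.0358% of all probe sets), while 4 had an unadjusted p under 0.05 (9.97% of all). Scg3, with germ-free insulin values near the negative controls, gave -1.06 ± 0.33 (limma adjusted p = 0.330; 95% interval -1.77 to -0.35), Pcsk1 -1.03 ± 0.46 (adjusted p = 0.490; -2.03 to -0.026), Chga -0.82 ± 0.26 (adjusted p = 0.336; -1.39 to -0.25) and Chgb -0.70 ± 0.20 (adjusted p = 0.296; -1.14 to -0.25). Scg5 (-0.67), Scg2 (-0.39), Pcsk1n (-0.33) and Pam (-0.026) were nearer to 0, and Cpe was at 0.53. Of the 9 genes 6 had a positive value in colonized and a negative one in germ-free mice, as did 24.8% of all genes. Without colonized saline animal 2 the median was -0.43, a move of more than 1.5 times. The mean of both insulin effects gave 0 limma calls among the 9 genes (0.419% of all probe sets), 1 at an unadjusted p under 0.05 (10.3% of all) and a median of -0.036.

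**Figure D3:**
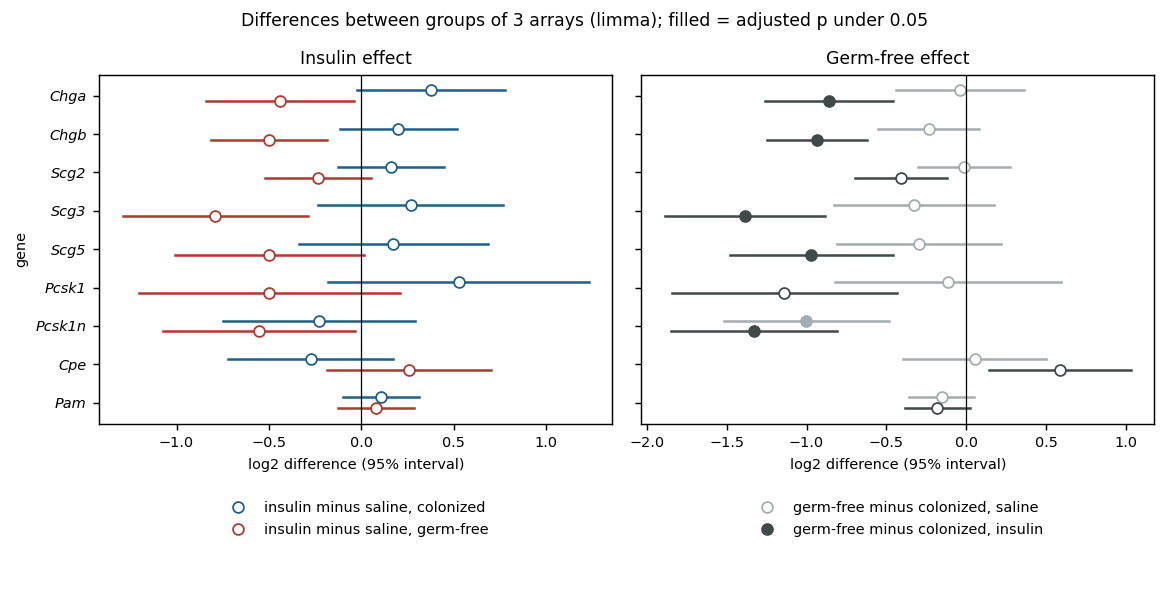
Log2 differences between groups of 3 arrays for the 9 genes, with 95% intervals from limma. The left panel shows insulin minus saline in colonized and germ-free mice, the right panel the germ-free minus the colonized level with saline or insulin, and filled points have an adjusted p under 0.05. Filled points are absent on the left, and on the right they mark 5 genes after insulin and Pcsk1n after saline.

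Germ-free and colonized mice were then compared after saline. Pcsk1n alone of the 9 genes was called, lower in germ-free mice by limma at -1.0 ± 0.24 (adjusted p = 0.0299), where 6.90% of all probe sets were called and 4.08% were called lower. Its 3 germ-free saline values (8.57 to 8.89) were all below the 3 colonized ones (9.50 to 9.95). The call was lost when any one of colonized saline animals 1 and 3 or germ-free saline animals 7, 8 and 9 was left out, with adjusted p up to 0.108 and a difference of -0.89 to -1.08. It was also lost with a covariate for the mean level of cortex (adjusted p = 0.194), chromaffin (0.0734) or pituitary markers (0.114), whose part was not tested. The other 8 genes were not called. Chgb had -0.24 (95% interval -0.55 to 0.079), Scg3 -0.33 (-0.83 to 0.17), Scg5 -0.30 (-0.81 to 0.21) and Pcsk1 -0.11 (-0.82 to 0.59). Pam had -0.16 (-0.36 to 0.050) and Cpe 0.051 (-0.39 to 0.50). Chga (-0.038) and Scg2 (-0.014) were close to 0, and both signs flipped with median centring of the arrays (to 0.040 and 0.064). Groups did not overlap for Scg3, Pcsk1n and Pam, all lower in germ-free mice, as for 16.4% of all probe sets.

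Markers of other cell types also differed after saline. Of all probe sets 6.90% were called in this comparison, 4.08% were called lower and 16.4% were lower without overlap. All 10 intestinal epithelium markers were called higher in germ-free mice, with a median of 3.59, led by Reg1 (5.49), Guca2b (4.67), Akp3 (4.39) and Muc13 (4.07). Of 8 Schwann and sustentacular cell markers 5 were called lower and all 8 were below 0, with a median of -0.85. The largest of these calls were Fabp7 (-2.66), Mbp (-1.27), Gpm6b (-1.08) and Cnp (-0.78). The mean of this list spanned 6.97 to 7.96 over the colonized saline arrays, above the 6.34 to 6.52 of the germ-free saline arrays. All 7 markers of sympathetic ganglion neurons were below 0, with a median of -1.15 and 6 without overlap, and 1 of them, Nefh (-0.70), was called. The mean of this list was 7.61, 9.83 and 7.17 in colonized saline animals 1, 2 and 3. In the germ-free saline arrays it was 6.82 to 6.92, so the size of the difference rested largely on colonized saline animal 2. Of 7 enteroendocrine markers 3 were called higher. The mean of this list was 5.09 to 5.52 in colonized saline and 5.70 to 5.77 in germ-free saline arrays. These means were under the negative control threshold of 7.71. Negative controls were also higher in the germ-free arrays, and the part of this background in the enteroendocrine values was not tested. Of the 14 chromaffin markers limma called 0, with 6 lower without overlap (16.4% of all probe sets) and a median of -0.28. The part of these lists in the Pcsk1n value was not tested.

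After insulin the germ-free medulla had lower levels of most granin genes. Limma called 5 of the 9 genes, all lower: Scg3 (-1.39 ± 0.23, adjusted p = 0.00583, with animals 11 and 12 under the negative control threshold), Pcsk1n (-1.33 ± 0.24, adjusted p = 0.00786), Scg5 (-0.97 ± 0.23, adjusted p = 0.0275), Chgb (-0.94 ± 0.14, adjusted p = 0.00432) and Chga (-0.86 ± 0.18, adjusted p = 0.0168). Of all probe sets 7.77% were called in this comparison and 5.15% were called lower. Pcsk1 (-1.14 ± 0.32, limma adjusted p = 0.0524; 95% interval -1.84 to -0.43) and Scg2 (-0.41 ± 0.13, adjusted p = 0.0816; -0.70 to -0.12) did not pass. Cpe had the opposite sign at 0.59 ± 0.20 (adjusted p = 0.106; 0.14 to 1.03), and Pam was at -0.18 ± 0.09 (adjusted p = 0.285; -0.39 to 0.024).

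The germ-free insulin arrays lay below the colonized insulin arrays without overlap for 8 genes (19.8% of all probe sets did so) and above them for Cpe (12.0%). The median over the 9 genes was -0.94, against -0.032 over all genes. Chgb, Scg3 and Pcsk1n were called in each of the 12 fits that left out 1 array. Without colonized insulin animal 4 or 5, or germ-free insulin animal 11 or 12, only these 3 remained, with 2.30% to 3.58% of all probe sets called. Limma called 8 genes without colonized saline animal 2 (14.6% of all probe sets) and 8 with array weights (19.0% of all). Cpe was among the 8 in both fits and was higher in germ-free mice (0.59 and 0.65). These 5 called genes share their arrays with the insulin comparisons above, since germ-free insulin and colonized insulin arrays enter both.

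Markers of several cell types passed the test in the same contrast, where 7.77% of all probe sets were called and 5.15% were called lower. Of 14 chromaffin markers 9 were called lower and all 14 were below 0, with a median of -1.04. The largest of these calls were Phox2a (-1.55), Pnmt (-1.22), Cyb561 (-1.20) and Hand2 (-1.19). Of 9 adipocyte markers 6 were called higher. All 9 were above 0 and higher without overlap (12.0% of all probe sets), with a median of 3.51. The largest adipocyte calls were Ucp1 (6.84), Cidea (3.51), Lep (2.26) and Fabp4 (2.11). Of 10 pituitary markers 9 were above 0 and 5 were called higher, namely Gh (5.55), Prl (3.37), Cga (1.97), Pomc (1.45) and Lhb (0.86). With the mean chromaffin marker level of each array as a covariate limma called 0 of the 9 genes, with 0.00511% of all probe sets called and a median of -0.14 over the 9. The pituitary covariate left 0 calls, with 0 over the whole table (median -0.23), and the adipocyte covariate 0, with 0.153% of all probe sets called (median -0.27). With the adrenal cortex covariate 8 of the 9 genes were called, among them Cpe as higher (0.71), with 12.1% of all probe sets. These marker levels follow the groups, and their part in the result was not tested.

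Averaged over both treatments, germ-free mice were lower for the same 5 genes. Limma called Pcsk1n (-1.16 ± 0.17, adjusted p = 0.00104), Scg3 (-0.86 ± 0.16, adjusted p = 0.00451), Scg5 (-0.63 ± 0.17, adjusted p = 0.0216), Chgb (-0.59 ± 0.10, adjusted p = 0.00290) and Chga (-0.45 ± 0.13, adjusted p = 0.0335), where 17.6% of all probe sets were called and 11.5% were called lower. Pcsk1 (-0.63, adjusted p = 0.0809), Scg2 (-0.21), Pam (-0.17) and Cpe (0.32) did not pass. Chgb, Scg3 and Pcsk1n were called in each of 12 fits that left out 1 array, Scg5 in 9 and Chga in 3. Without colonized saline animal 2 limma called 8 genes (25.1% of all probe sets), among them Cpe as higher in germ-free mice (0.43). Without colonized insulin animal 4, germ-free saline animal 7 or germ-free insulin animal 12 it called 3 (12.4% to 13.2% of all). The adrenal cortex covariate called 4 members (11.1% of all), without Scg3 (adjusted p = 0.0580) and Scg5 (0.0547), and median centring ended the call of Chga (0.0788). Array weights gave 8 calls (28.3% of all), again with Cpe as higher (0.42). The chromaffin covariate gave 0 calls, the pituitary covariate 0 and the adipocyte covariate 1, with 0.0102%, 0 and 7.61% of all probe sets called under these covariates in turn.

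Other genes of the same pathway were read from lists. Among 27 further granule genes, limma called 10 lower and 0 higher in germ-free mice after insulin, with a median of -0.71. Of all probe sets 5.15% were called lower there. Ptprn2 (-1.47) and Ptprn (-1.17), receptor-type phosphatase-like proteins of the granule membrane, fell, as did Resp18 (-1.43), a luminal granule protein, and Cyb561 (-1.20), which passes electrons into the granule. Cyb561, Slc18a1 and Slc18a2 are also on the chromaffin list. After saline 2 of the 27 were called, Hid1 higher (0.89) and Stx6 lower (-0.77), a share near the 6.90% of all probe sets called there. In colonized mice 1 of them was called, higher with insulin, Vgf (1.79 ± 0.28, limma adjusted p = 0.0429), a granin-like peptide precursor (0.153% of all probe sets were called). In germ-free mice limma called 0 of 27 (0.439% of all), with 8 at an unadjusted p under 0.05 (8.31% of all). Vgf was at 1.08 there (limma adjusted p = 0.183).

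Other convertases were measured for comparison. Of these 6, Pcsk4, a convertase known from germ cells, was higher in germ-free mice after insulin (0.72 ± 0.16, limma adjusted p = 0.0196). Its means there, 6.59 in colonized and 7.32 in germ-free mice, were both under 7.71, the negative control threshold. Negative controls were also higher in the germ-free arrays, and the part of this background in the Pcsk4 value was not tested. Pcsk5 was higher in germ-free mice after saline (0.79 ± 0.21, limma adjusted p = 0.0472). Furin, the convertase of the constitutive pathway, was at -0.26 after insulin and 0.0063 after saline and was not called. Neither insulin comparison called any of the 6 by limma, and 0 had an unadjusted p under 0.05 in either. Of 12 other enzymes that trim or modify peptides, Qpct, which cyclizes N-terminal glutamine, was lower in germ-free mice after insulin (-0.81 ± 0.15, limma adjusted p = 0.00830). Qpct was dim, with means after saline of 6.76 in colonized and 6.42 in germ-free mice, under the threshold of 7.71. Ctsl (-0.65) and Tpst1 (-0.47), the latter a tyrosine sulfotransferase, were lower in germ-free mice after saline. For insulin limma called 0 of these 12 in each colonization state, with 1 at an unadjusted p under 0.05 in each.

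The precursors that these enzymes cut were read next. Of 13 peptide precursors measured, Tac1, the precursor of substance P, rose with insulin in colonized (2.43 ± 0.41, limma adjusted p = 0.0463) and germ-free mice (2.75 ± 0.41, adjusted p = 0.0122). Adm, the adrenomedullin precursor, fell by 1.31 in colonized and fell by 1.90 in germ-free mice, and Nppb, the natriuretic peptide precursor, rose in colonized mice (0.98). In germ-free mice Adm was lower after saline (-0.96) and after insulin (-1.56), and Nppb after insulin (-0.88). Penk, the enkephalin precursor stored with granins, and Npy were not called in the 4 comparisons of single groups. After insulin Npy differed between germ-free and colonized mice by -0.88 (adjusted p = 0.0539) and Penk by -0.54 (adjusted p = 0.503).

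**Figure D4:**
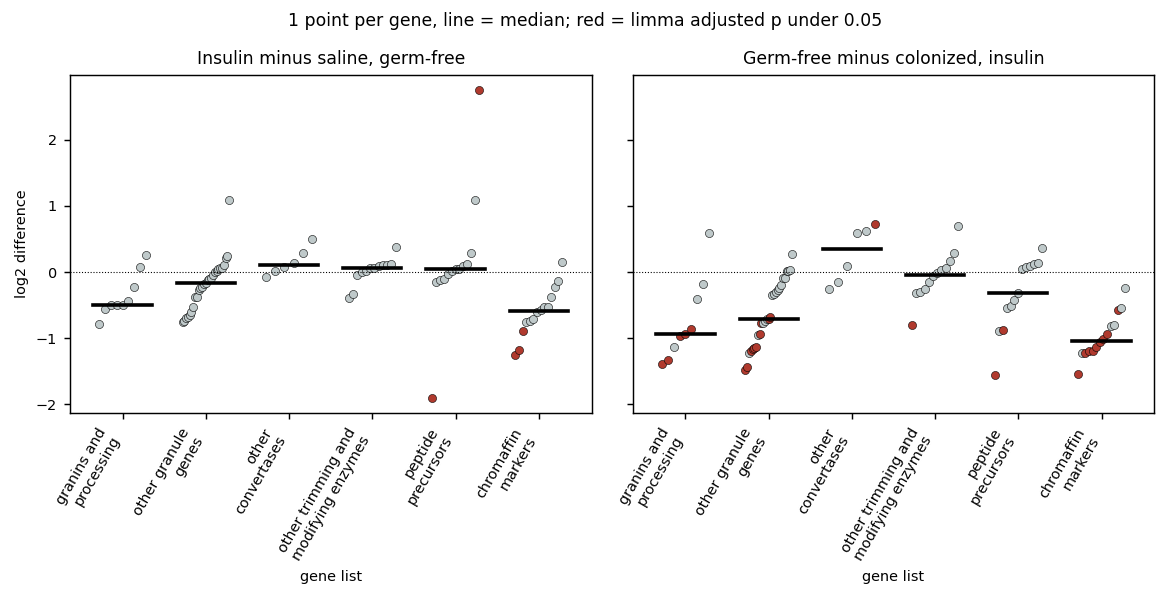
Log2 differences of single genes (1 point each) for the 9 granin and processing genes and 5 other lists, for insulin minus saline in germ-free mice (left) and germ-free minus colonized after insulin (right). Black lines are medians and red points have a limma adjusted p under 0.05. On the right the medians are -0.94 for the 9 genes, -0.71 for other granule genes and -1.04 for chromaffin markers, and 0.34 for other convertases.

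The genes whose centred profiles over the 12 arrays came closest to each member were found among genes above the negative control threshold, by the root mean square (RMS) difference in log2 units. Chga and Chgb were closest to each other among the members (0.117), and the nearest other genes were Ppp1r13b (0.126) and Gas7 (0.128) for Chga and Suox (0.107) and Plppr2 (0.111) for Chgb. Scg2 had the closest neighbour of all, Clint1 (0.034), an adaptor of clathrin-coated vesicles, followed by Ogfod3 (0.081). Scg3 lay near Mfsd6 (0.092) and Cd55b (0.120), and Scg5 near Rab3c (0.132), a small GTPase of secretory vesicles, and Sez6l2 (0.133).

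Pcsk1 was closest to Hap1 (0.149) and to Slc18a1 (0.160), the vesicular monoamine transporter of chromaffin cells. Pcsk1n, with a profile SD of 0.68, had Spock2 (0.203) and Ptprn2 (0.206) as its neighbours. Cpe lay near Khdrbs3 (0.099) and Pbx3 (0.099), and Pam near Kpnb1 (0.062) and Rab1a (0.065), against profile SDs of 0.31 and 0.11. These distances describe the 12 arrays, which share groups and marker levels, and carry no test.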

How the data were processed

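Gene expression was measured on 12 Affymetrix arrays, 1 per animal, and the number of arrays limits the precision. The deposited values are on a log2 scale, made by the authors with RMA, and limma is also named, both per the submitters' processing notes, with versions not given in the sources used here. Whether the arrays of both colonization states went through RMA together is likewise not given there. Of 28846 rows, 19572 had 1 gene symbol, 0 had several and 9274 had none; the last were left out of the tests. The 12 arrays entered a single limma fit (version 3.58.1, R 4.3.3) of 4 group means, without covariates, with 8 residual and 4.08 prior degrees of freedom. Adjustment of p-values followed Benjamini and Hochberg, over 19572 probe sets in each of 7 contrasts, with calls under 0.05. The pipeline was tested on simulated data. The labels describe individual samples, so the spread is that between animals.

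The members and gene lists were chosen with earlier results of these data known. All members were named in each contrast, and in the other lists up to 4 called genes per contrast by size of change, with genes outside this rule (Furin, Penk, Npy, Lhb, and Vgf in germ-free mice) chosen after their values were seen. The 2 nearest profiles were taken for each member, among genes with a mean above 7.71, the 95th percentile of the negative controls. Promoters were read from RefSeq (GRCm38.p6), 250 bases ahead of the start. Alternatives were all rows, a filter on dim probe sets, median centring, 1 probe set per gene, quantile normalization applied again, trend and robust options, array weights, marker covariates, the compared groups alone and leaving out each array. The adipocyte covariate was added after seeing the data.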

Additional observations from a re-analysis of the deposited data

How the results depend on the processing

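No paired analysis was possible because the labels number the animals 1 to 12 and the groups share no number. Calls and medians kept within 1.5 times or within the spread under all rows, the dim filter, median centring, 1 probe set per gene, a repeated quantile normalization and the trend and robust options, although median centring ended the call of Chga for the mean germ-free effect. Repeated quantile normalization and median centring moved the share of higher calls over all probe sets from 33.7% to 44.9% and 51.2% (germ-free effect after insulin), from 40.9% to 58.4% and 64.2% (after saline) and from 34.8% to 49.2% and 57.1% (their mean), so the split of all genes into higher and lower is uncertain. With 3 arrays per group, limma calls depend on single arrays, and the cause was not tested in any case below.

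Array weights gave 8 members called for the germ-free effect after insulin (19.0% of all probe sets) and 8 for its mean over treatments (28.3%). Cpe was among the 8 in both and was higher in germ-free mice. For the insulin effect in germ-free mice they gave 2 (2.78%), where the compared groups alone gave 1 (1.63%). The adrenal cortex covariate gave 8 calls after insulin (12.1%, with Cpe called higher), 0 after saline (0.823%) and 4 on average (11.1%). Its medians were -0.026 (insulin in colonized mice), -0.30 (difference of the insulin effects), -0.23 (mean insulin effect), -0.57 (germ-free effect after saline) and -0.81 (mean germ-free effect). The chromaffin covariate gave 0 calls for the germ-free effect after saline, after insulin and on average, with medians of 0.087, -0.14 and -0.057, and medians of -0.011 for insulin in germ-free mice and -0.20 for the difference. The pituitary covariate gave 0 calls in the same 3, with medians of -0.23 after insulin and -0.18 on average, 0.040 for insulin in germ-free mice and -0.086 for the difference. The adipocyte covariate gave 0 calls after insulin and 1 on average, with medians of -0.27 and -0.19, and -0.25 for insulin in germ-free mice and -0.16 for the difference. Leaving out 1 array gave 3 to 8 calls for the germ-free effect after insulin and on average, and 0 to 1 after saline. Where 8 were called, Cpe was among them and was higher in germ-free mice. The medians then ran from 0.037 to 0.29 (insulin in colonized mice), -0.79 to -0.43 (difference), -0.22 to -0.027 (mean insulin effect) and -0.40 to -0.098 (germ-free effect after saline).

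Signs of single genes turned as follows. For insulin in colonized mice the cortex covariate gave -0.00084 for Chgb, -0.028 for Scg2, -0.032 for Scg5 and -0.090 for Pcsk1, and the adipocyte covariate -0.056 for Scg3, -0.21 for Scg5 and 0.056 for Cpe. For insulin in germ-free mice the chromaffin covariate gave 0.23 for Scg5, 0.10 for Pcsk1, 0.29 for Pcsk1n and -0.19 for Cpe, and the pituitary covariate 0.040 for Chga, 0.27 for Scg3, 0.25 for Scg5 and 0.38 for Pcsk1n. For the difference of the insulin effects the chromaffin covariate gave 0.099 for Scg5 and 0.57 for Pcsk1n, the pituitary covariate 0.012 and 0.53, and the adipocyte covariate 0.16 for Pcsk1n and -0.012 for Cpe. For the germ-free effect after saline, median centring gave 0.040 for Chga and 0.064 for Scg2. The chromaffin covariate gave 0.16 for Chga, 0.087 for Scg2, 0.10 for Scg3, 0.11 for Scg5, 0.22 for Pcsk1 and -0.20 for Cpe, the pituitary covariate 0.048 for Chga and 0.017 for Scg2, and the adipocyte covariate 0.041 for Chga, 0.038 for Scg2, 0.065 for Pcsk1 and -0.070 for Cpe. After insulin the chromaffin covariate gave 0.20 for Scg5, 0.037 for Pcsk1n and -0.14 for Cpe, and the adipocyte covariate -0.082 for Cpe. On average the chromaffin covariate gave 0.15 for Scg5, 0.026 for Pcsk1 and -0.17 for Cpe, and the adipocyte covariate -0.076 for Cpe. With 1 array left out, the values ran from -0.067 to 0.41 for Scg5 (insulin in colonized mice) and -0.076 to 0.017 for Pam (difference), and for the germ-free effect after saline from -0.28 to 0.088 for Chga, -0.16 to 0.10 for Scg2, -0.58 to 0.14 for Pcsk1 and -0.12 to 0.28 for Cpe.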
